A study of Mus musculus with 2 samples.

Results

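The 8 CC chemokine genes *Ccl2*, *Ccl3*, *Ccl4*, *Ccl5*, *Ccl7*, *Ccl9*, *Ccl12* and *Ccl22* were followed by gene symbol through the gene table of mouse bone marrow-derived macrophages stimulated with lipopolysaccharide (LPS), a bacterial cell wall component. All 8 had an entry among the 16218 genes with a symbol. The TKO cells came from mice labelled mir-106a~363-/- and mir-106b~25-/-, which were also mir-17~92flox/flox with Lyz2-Cre. They thus carried null alleles of 2 related microRNA clusters, and the *Lyz2* promoter drove Cre to delete a further one in myeloid cells. The WT cells carried Lyz2-Cre alone. Both were on the C57BL/6J strain, were grown from marrow for 5 days with 10% L929 cell supernatant as a source of macrophage colony stimulating factor, and received 10 ng/ml LPS for 3 h. The comparison addresses how the LPS-stimulated transcriptome differed without these microRNAs. Each genotype had 1 library of polyadenylated RNA and no unstimulated library was analysed here, so no difference has a replicate check, and an effect of genotype cannot be told apart from one of the culture. Mature microRNAs are not read in polyadenylated RNA, so the deletions could not be checked here. *Mir17hg*, the host transcript of the floxed cluster, had 16 counts in each library, and *Mcm7*, whose intron holds mir-106b~25, had 496 counts in TKO and 608 in WT. Both genes extend beyond the deleted microRNAs, so these counts check nothing about the deletions. The words "higher" and "lower" describe these 2 libraries only. Intervals below are 95% and cover counting error only.

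CC chemokines are small secreted proteins named for a pair of adjacent cysteines, and they direct leukocytes through G protein-coupled receptors. Macrophages switch many of them on within hours of Toll-like receptor 4 activation, through NF-κB and interferon regulatory factors. In the mouse, CCL2, CCL7 and CCL12 act on CCR2 and draw monocytes, CCL3, CCL4 and CCL5 draw monocytes and T cells, CCL9 acts on CCR1, and CCL22 acts on CCR4 of regulatory and helper T cells.

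The TKO library held less RNA of 7 of these 8 chemokines and an amount of *Ccl22* that could not be told from that in WT by counting error. The differences were modest and unequal. *Ccl4* was 1.89-fold lower, *Ccl2* and *Ccl3* were about equally lower at 1.51-fold and 1.49-fold, and *Ccl9* was 1.11-fold lower. Because the most abundant genes differed by unequal amounts, their order by FPKM, a level per length, was not the same in the 2 libraries. Their order by counts was the same. Of the receptors, *Ccr1* and *Ccr3* were lower in TKO as well, and *Ccr2* was not detectably different.

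The mature microRNAs of the deleted clusters were set beside the chemokine transcripts first, since a seed match is the sequence by which a microRNA could act on them. The 15 microRNA genes of the clusters fall into 4 seed families. One mature sequence of each family is shown 5′ to 3′ (RefSeq, GRCm38.p6, chromosome 14), with the seed, bases 2 to 8, in capitals.
mmu-miR-17-5p: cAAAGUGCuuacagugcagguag
mmu-miR-18a-5p: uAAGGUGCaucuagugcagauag
mmu-miR-19b-3p: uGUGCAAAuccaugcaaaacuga
mmu-miR-92a-3p: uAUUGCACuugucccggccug
The miR-17 seed is shared by 6 of the genes, the miR-92 seed by 4, the miR-19 seed by 3 and the miR-18 seed by 2.

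A 7-base match to any of these seeds was absent from the longest annotated 3′ UTR of 7 of the 8 chemokines (GENCODE M21, mm10). The exception was *Ccl7*, whose 3′ UTR of 435 bases ends with a match to the miR-19 seed, TTTGCAC, followed by an A opposite the first base of the microRNA. The site is shown in capitals within its last 30 bases, chr11:82047496-82047525 on the plus strand.
Ccl7 site: gtttcatataaaatgtattTTTGCACaaaa
Among 11142 measured genes with an annotated 3′ UTR, 13.5% held this 7-base word and 34.2% held a match of any of the 4 families. Among the 1042 of a length near that of *Ccl7*, 3.36% held the miR-19 word. The share for any of the 4 families was not matched for length. The 3′ UTRs searched had a median of 1220 bases, and all members but *Ccl9* and *Ccl22* have shorter ones. A shorter match, to bases 2 to 7 with an A opposite base 1, was found for the miR-17 family in *Ccl7* and *Ccl9*. The share of all 3′ UTRs with this shorter match was not computed, and the 3′ UTR of *Ccl9* is long, at 2465 bases. *Ccl7*, the one gene with a full match, was 1.30-fold lower in TKO (1.18 to 1.42).

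Many short-lived cytokine messages carry AU-rich stretches built on the word ATTTA, which the decay protein tristetraprolin, encoded by *Zfp36*, binds. This word occurred in the 3′ UTRs of 7 of the 8 chemokines, against 71.1% of all 3′ UTRs searched, a share not matched for length either. The word was dense in *Ccl12* (5 copies in 167 bases) and *Ccl3* (5 in 409), which passed 1 copy per 100 bases together with 0.898% of all 3′ UTRs. *Ccl4* and *Ccl7* had 2 copies each, *Ccl2* had 1 and *Ccl5* had 0, while the longer 3′ UTRs of *Ccl9* (2465 bases) and *Ccl22* (1813 bases) had 5 and 2. The 30-base stretches with the most copies in *Ccl12* and *Ccl3*, the densest members, are shown with the word in capitals. They lie at chr11:82103325-82103354 (plus strand) and chr11:83648075-83648104 (minus strand).
Ccl12: ATTTAaacaaacttgcttaaataatATTTA
Ccl3: ttgaaattttATTTAATTTAatcctattgg

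As a group the 8 genes gave 76477 counts in TKO and 98255 counts in WT. Their share of all counts was 0.706% in TKO (0.701 to 0.711, exact Clopper-Pearson) and 0.913% in WT (0.907 to 0.918), 1.29-fold lower in TKO (1.28 to 1.31). *Ccl3*, *Ccl4*, *Ccl5* and *Ccl9* together made up 93.9% of the chemokine counts in either library. All 8 passed the filter for measured genes, a mean of at least 1 count per 1000000 (CPM) over both libraries. The call used here needs a CPM ratio of 1.5 or more in either direction and a counting interval that excludes equality. By this rule 2 of the 8 were lower, *Ccl4* and *Ccl2*, and 0 were higher, against 5.6% lower and 2.98% higher among 11662 measured genes. With TMM or median-of-ratios scaling *Ccl2* came to 1.46-fold and 1.47-fold lower, and only *Ccl4* passed. Counting any size of difference whose interval excluded equality, 7 of the 8 were lower, against 20.2% of measured genes. With TMM or median-of-ratios scaling the 7 fell to 6, without *Ccl12*. At a WT excess of 25% the 8 gave 5 lower genes, against 11.5% of measured genes, and at 2-fold 0, against 2.36%. Abundant genes have narrower intervals: of the 6 members with a mean of at least 100 CPM, 2 were lower by 1.5-fold and 5 by any size, against 2.05% and 31.9% of all genes that abundant. The median log2 ratio of the 8 was −0.39, against −0.04 over all measured genes.

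**Figure D1:**
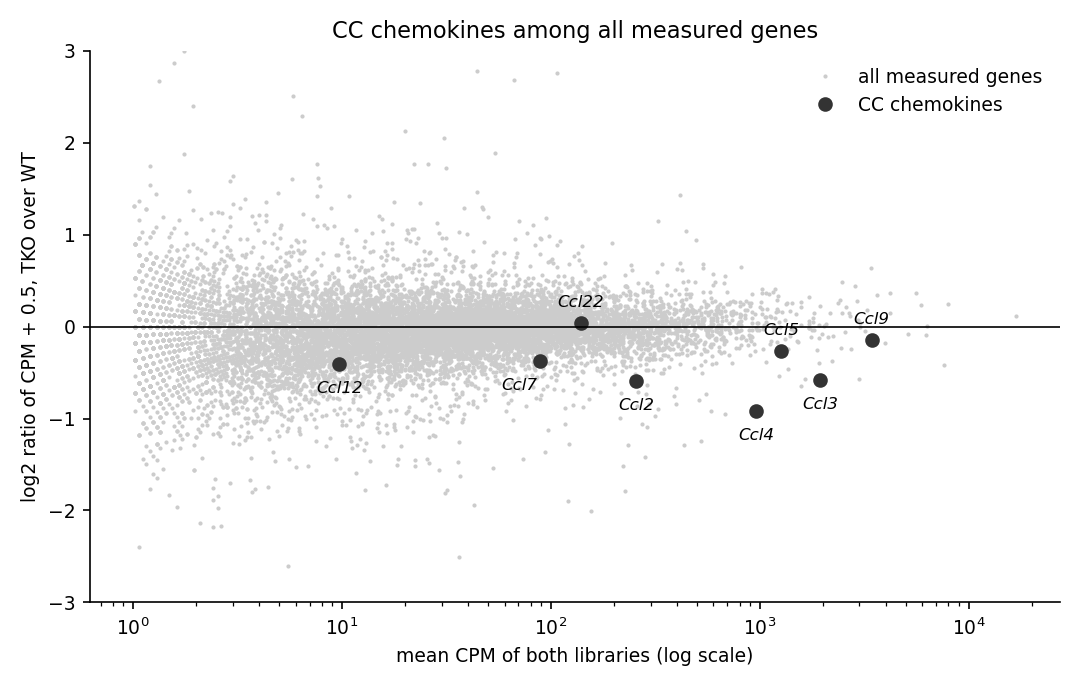
Log2 ratio of TKO over WT (CPM + 0.5, vertical axis) against mean CPM of both libraries (log axis) for all measured genes in grey and the 8 CC chemokines as dark points; 19 genes beyond a log2 ratio of 3 in size lie outside the axis. *Ccl22* lies just above 0 and the other chemokines below it, down to *Ccl4* at −0.91.

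Monocyte attractants acting on CCR2 were described first. *Ccl2* (gene 20296, chromosome 11, 82035571 to 82037453) encodes the main attractant of inflammatory monocytes. It had 2206 counts in TKO and 3305 counts in WT, which is 204 CPM in TKO and 307 CPM in WT, a 1.51-fold lower level (1.43 to 1.59). An annotated gene on the opposite strand, *Gm17268*, spans *Ccl2*, and strand use in the counting is not given in the sources used here, so reads of the 2 genes cannot be told apart. *Ccl7* (gene 20306, chromosome 11, 82045712 to 82047525), which encodes another CCR2 ligand and lies next to *Ccl2*, had 837 counts in TKO and 1078 counts in WT. Its ratio was nearer to equality than that of *Ccl2*: the *Ccl2* to *Ccl7* count ratio was 2.64 in TKO and 3.07 in WT, lower in TKO by a factor of 0.86 (0.773 to 0.956). *Ccl12* (gene 20293, chromosome 11, 82101845 to 82103400), a CCR2 ligand that is known from the mouse, was the least abundant member. It had 90 counts in TKO and 120 counts in WT, 1.34-fold lower (1.01 to 1.78). This interval barely excluded equality and included it under TMM scaling (ratio 0.77, 0.579 to 1.02), so a difference in *Ccl12* was at the limit of what this depth can show.

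The largest difference was that of *Ccl4*, one of 3 members that draw both monocytes and T cells. *Ccl4* (gene 20303, chromosome 11, 83662584 to 83664683) encodes an attractant of monocytes, T cells and natural killer cells. It had 7224 counts in TKO and 13527 counts in WT, 1.89-fold lower (1.83 to 1.94), and was ranked 216 among all genes by CPM in TKO against 80 in WT. *Ccl3* (gene 20302, chromosome 11, 83647844 to 83649355), which encodes a closely related chemokine that acts on CCR1, had 16897 counts in TKO and 25023 counts in WT. That is 1.49-fold lower (1.46 to 1.52), just short of the 1.5-fold rule that *Ccl2* just passed. *Ccl5* (gene 20304, chromosome 11, 83525778 to 83530518) encodes a ligand of CCR1 and CCR3 and is a target of interferon-activated factors. It had 12421 counts in TKO and 14875 counts in WT, 1.21-fold lower (1.18 to 1.23).

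*Ccl3*, *Ccl4* and *Ccl5* therefore did not differ by a common factor. A ratio of 2 genes within a library is free of the scaling between libraries. *Ccl3* counts were 2.34 times *Ccl4* counts in TKO and 1.85 times in WT, a change by a factor of 1.26 (1.22 to 1.31). *Ccl4* counts were 0.582 times *Ccl5* counts in TKO and 0.909 times in WT, a change by a factor of 0.64 (0.616 to 0.664). By contrast *Ccl2* and *Ccl3*, which lie in separate groups of the locus and use different receptors, kept their ratio within counting error (factor 0.988, 0.933 to 1.05). Of all 28 pairs among the 8 genes, 21 had an interval of this factor that excluded 1. Among the other 7 pairs, 5 involved *Ccl12*, the gene with the fewest counts. At high counts a small difference is enough: *Ccl5* over *Ccl9* changed by a factor of 0.92 (0.894 to 0.946). The share among pairs of other genes was not computed, so the 21 do not set the chemokines apart.

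*Ccl9* and *Ccl22* were closest to equality. *Ccl9* (gene 20308, chromosome 11, 83572919 to 83578636) encodes a CCR1 ligand that resting mouse macrophages already make. It had the most counts of the 8, 35281 in TKO and 38853 in WT, and was 1.11-fold lower (1.09 to 1.12). Its estimated counts were fractional in both libraries, so a part of its reads had been shared with other genes, whereas the other 7 had whole estimates. *Ccl22* (gene 20299, chromosome 8, 94745590 to 94751699) encodes a CCR4 ligand made by macrophages and dendritic cells. It had 1521 counts in TKO and 1474 counts in WT, a ratio of 1.02 (0.954 to 1.102), so the interval held equality. With TMM scaling the interval was 0.986 to 1.14 and held equality too. In the authors' deposited table, whose test compares these 2 libraries and not the conditions, *Ccl22* had a p-value of 0.499 and *Ccl12* one of 0.0343, with an adjusted value of 0.141 for *Ccl12*.

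**Figure D2:**
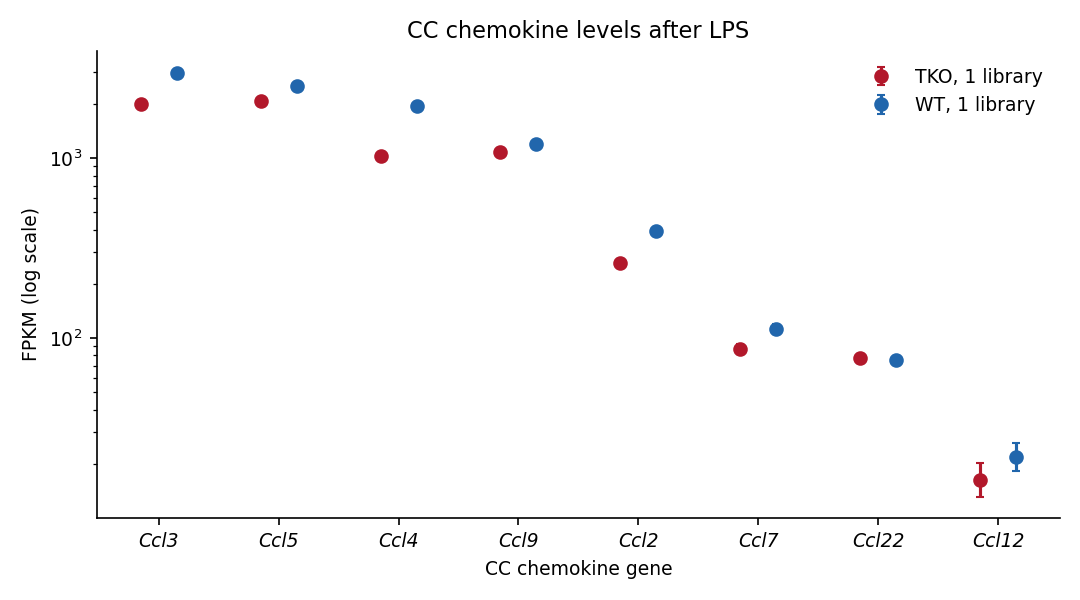
FPKM of each chemokine gene (log axis) in the TKO library (red, left) and the WT library (blue, right), with 95% Poisson counting intervals; 1 library per genotype. Points of both libraries are closest for *Ccl22*, and farthest apart for *Ccl4* (1029 in TKO, 1939 in WT).

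Levels of different genes were compared per length, as the FPKM deposited by the authors. In TKO the order was *Ccl5* (2079 FPKM), *Ccl3* (1999), *Ccl9* (1078), *Ccl4* (1029), *Ccl2* (260), *Ccl7* (86.8), *Ccl22* (77.6) and *Ccl12* (16.3). In WT it was *Ccl3* (2979 FPKM), *Ccl5* (2505), *Ccl4* (1939), *Ccl9* (1195), *Ccl2* (392), *Ccl7* (112), *Ccl22* (75.7) and *Ccl12* (21.9). The top 2 thus changed places, and so did the next 2, because *Ccl3* and *Ccl4* differed more than *Ccl5* and *Ccl9*. Neighbours in each order lay outside each other's counting intervals, apart from *Ccl7* and *Ccl22* in TKO, which overlapped (81.0 to 92.9 FPKM for *Ccl7* and 73.8 to 81.6 for *Ccl22*). All 4 leading chemokines remained among the 42 highest genes by FPKM in TKO, and among the 33 highest in WT.

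Of the 8 genes 7 lie on chromosome 11 in 2 groups separated by 1422 kb. *Ccl2*, *Ccl7* and *Ccl12* occupy 67.8 kb, and *Ccl5*, *Ccl9*, *Ccl3* and *Ccl4* occupy 139 kb. *Ccl3* and *Ccl4* are divergently oriented with 13.2 kb between their starts, and *Ccl6*, another CCR1 ligand, lies between *Ccl9* and *Ccl3*. *Ccl6* was 1.10-fold higher in TKO (1.01 to 1.2; 1166 counts in TKO, 1051 in WT), between *Ccl9* and the markedly lower *Ccl3* and *Ccl4*. The 20 measured protein-coding genes that are not chemokines, from *Ccl2* to 100 kb past *Ccl4*, had a median log2 ratio of 0.03. By the call with an interval that excludes equality, 1 of them was lower, *Nle1* (60 counts in TKO, 96 in WT; chosen after its values were seen), a share near the 5.6% of all measured genes, and 0 were higher.

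**Figure D3:**
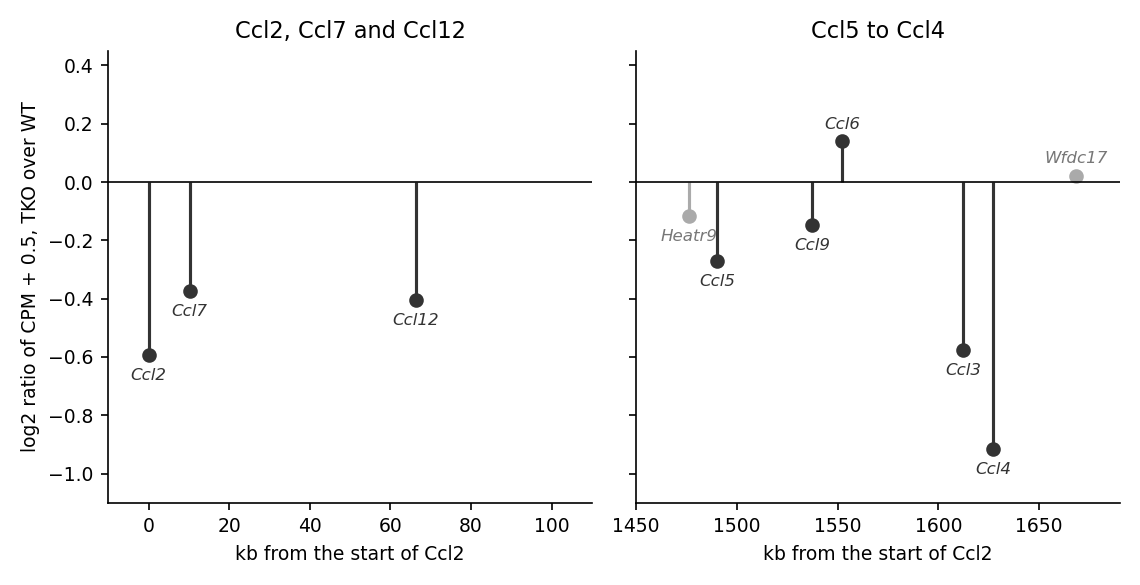
Log2 ratio of TKO over WT (CPM + 0.5) for measured genes at the *Ccl2* group (left panel) and the *Ccl5* to *Ccl4* group (right panel), plotted by distance in kb from the start of *Ccl2*; dark marks chemokines and grey other genes. In the right panel chemokines range from *Ccl6* above 0 to *Ccl4* at −0.91.

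Promoter windows were available for 4 of the 8, *Ccl3*, *Ccl9*, *Ccl12* and *Ccl22* (RefSeq, GRCm38.p6, from 250 bases before to 50 bases after the start). *Ccl2*, *Ccl4*, *Ccl5* and *Ccl7* had no entry. Searched on both strands were the NF-κB consensus, which 8.46% of all 32851 windows held, the AP-1 word TGANTCA (7.81%) and the TATA word TATAAA (13.6%); in the windows shown no motif overlapped a different one. *Ccl9* held all 3 motifs, *Ccl12* held the TATA word only, and *Ccl3* and *Ccl22* held none of these letters. The windows of *Ccl3* (chr11:83649329-83649628, minus strand) and *Ccl9* (chr11:83578587-83578886, minus strand) are shown because these neighbours are on the same strand, are among the most abundant chemokines and differed in ratio. Capitals mark motif matches on either strand.
Ccl3 promoter: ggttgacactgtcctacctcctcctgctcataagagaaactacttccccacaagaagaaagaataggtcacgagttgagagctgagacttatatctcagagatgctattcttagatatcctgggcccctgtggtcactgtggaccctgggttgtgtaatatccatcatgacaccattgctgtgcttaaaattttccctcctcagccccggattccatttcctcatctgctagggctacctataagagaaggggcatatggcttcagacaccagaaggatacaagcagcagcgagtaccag
Ccl9 promoter: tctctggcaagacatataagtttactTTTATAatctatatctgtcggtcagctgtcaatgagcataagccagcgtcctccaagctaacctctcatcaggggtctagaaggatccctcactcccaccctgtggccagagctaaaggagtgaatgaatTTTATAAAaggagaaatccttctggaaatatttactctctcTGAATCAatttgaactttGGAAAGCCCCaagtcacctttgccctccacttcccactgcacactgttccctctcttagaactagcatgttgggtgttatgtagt
Of this pair, *Ccl9*, which differed less between libraries, held the matches. Whether these words bear on the ratios was not tested. An exact search also misses sites that depart from the words, so a window without a match may still hold such sites.

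Of 16 other CC ligands listed, 9 had an entry and 4 were measured. *Ccl28*, a CCR3 and CCR10 ligand best known from mucosal epithelium, was 3.09-fold higher in TKO (1.79 to 5.59) with 56 counts in TKO and 18 in WT. Its estimates were fractional (55.51 in TKO, 17.98 in WT), so a part of its few reads had been shared with other genes. *Ccl17*, a CCR4 ligand that lies near *Ccl22*, had 82 counts in TKO and 60 in WT, a ratio whose interval included equality (0.961 to 1.93), and so did *Ccl24*, a CCR3 ligand, with 34 counts in TKO and 52 in WT. With *Ccl6*, the 4 had a median log2 ratio of 0.27, against −0.39 for the 8. These lists are short, and their difference was not tested.

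Of 10 CC receptors, 7 had an entry and 5 were measured; 2 passed the 1.5-fold call as lower and 0 as higher, beside the 5.6% and 2.98% of all measured genes. *Ccr1*, the receptor of CCL9, had 57 counts in TKO and 95 in WT, 1.68-fold lower (1.2 to 2.37). *Ccr3*, the eotaxin receptor, had 19 counts in TKO and 76 in WT, 4.03-fold lower (2.41 to 7.05). Both had whole estimates, and both rest on fewer than 100 counts in either library. *Ccr2*, the receptor of CCL2, CCL7 and CCL12, had 265 counts in TKO and 277 in WT, which could not be told from equality at this depth. *Ccr4*, the receptor of CCL22, had 0 counts in TKO, which allows up to 0.277 CPM, and 3 in WT. *Ccrl2*, an atypical receptor that binds but does not signal from its ligands, was the most abundant gene of these lists and was 1.27-fold higher in TKO (1.21 to 1.33; 4575 counts in TKO, 3580 in WT).

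**Figure D4:**
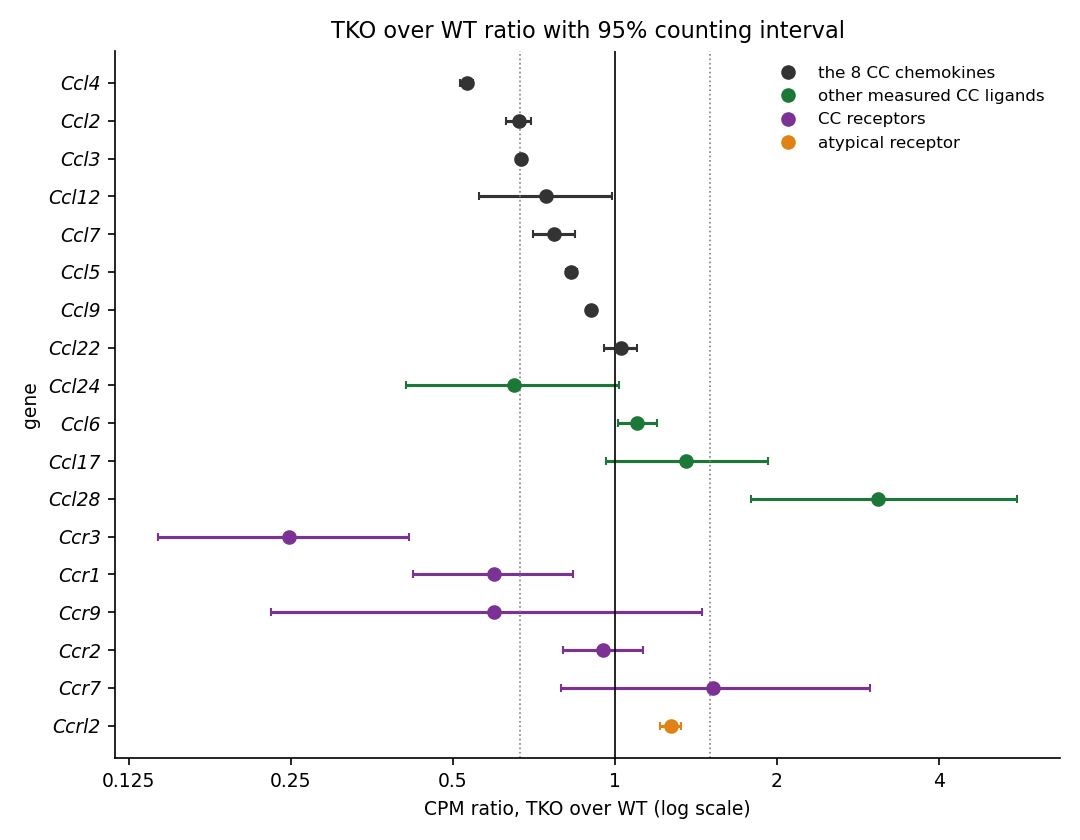
CPM ratio of TKO over WT (log axis) with 95% counting intervals for the 8 CC chemokines (dark grey), other measured CC ligands (green), CC receptors (purple) and an atypical receptor (orange); dotted lines mark 1.5-fold. *Ccl4*, *Ccl2*, *Ccl24*, *Ccr1*, *Ccr3* and *Ccr9* lie left of the lower dotted line, and *Ccl28* and *Ccr7* right of the upper one; the intervals of *Ccl24*, *Ccr9* and *Ccr7* include equality.

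Of 16 NF-κB and interferon regulatory factor genes, 0 passed the 1.5-fold call, beside 5.6% lower and 2.98% higher among all measured genes. At those shares, 0 in so short a list does not set these genes apart. *Rela*, an activating NF-κB subunit, had 3634 counts in TKO and 3476 in WT. *Nfkbia*, the NF-κB inhibitor that NF-κB itself induces, was 1.31-fold lower (1.27 to 1.34), and *Irf8*, a macrophage lineage factor, 1.47-fold lower (1.34 to 1.62). *Irf7*, itself interferon-induced, was 1.24-fold higher (1.18 to 1.30). These genes, and *Tlr4* and *Ly96* below, were chosen after their values were seen. Of 11 Toll-like receptor 4 pathway genes, 0 passed the call, which the same shares do not set apart either. *Tlr4*, the LPS receptor, was 1.26-fold higher (1.15 to 1.39), and *Ly96*, its co-receptor, had 76 counts in TKO and 113 in WT. Of 12 genes of mRNA decay and stability, not all of which act through AU-rich words, *Zfp36* alone passed the call, beside the same shares. It was 1.94-fold lower in TKO (1.87 to 2.00). Its relatives *Zfp36l1* (223 counts in TKO, 230 in WT) and *Zfp36l2* (414 counts in TKO, 339 in WT) were within 1.5-fold. Whether the lower *Zfp36* bears on the chemokines was not tested.

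Chemokines of the CXC and CX3C families, a list made after the values were known, showed another pattern. Of 16 genes, 12 were measured, and the 1.5-fold call gave 4 higher and 0 lower, beside 2.98% higher and 5.6% lower among all measured genes. The 4 were the neutrophil attractants *Cxcl1*, *Cxcl3* and *Cxcl5* and the T cell attractant *Cxcl11*. *Cxcl1* had 4877 counts in TKO and 2176 in WT, and *Cxcl3* had 7097 in TKO and 3663 in WT. *Cxcl11* had 706 counts in TKO and 250 in WT. *Cxcl5* had only 24 counts in TKO and 11 in WT, with a ratio interval of 1.02 to 4.90. With genes under 10 CPM left out, 3 were higher. Summed over the 14 genes with an entry, the list came to 5553 CPM in TKO and 5783 CPM in WT. *Cxcl10*, a T cell attractant, was 1.49-fold lower (1.46 to 1.51; 25895 counts in TKO, 38236 in WT), close to the ratios of *Ccl2* and *Ccl3*. The difference between the families was not tested.

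Several stromal markers were lower in the TKO library beside *Ccl2* and *Ccl7*, which fibroblasts also make. Of 8 fibroblast and stromal markers 7 were measured and 5 passed the 1.5-fold call as lower, beside 5.6% of all measured genes. Their summed level was 155 CPM in TKO and 397 CPM in WT over the 8. The 5 were the collagen genes *Col1a1* (550 counts in TKO, 2055 in WT), *Col1a2* (428 in TKO, 1166 in WT) and *Col3a1* (60 in TKO, 217 in WT), and the matrix genes *Postn* (79 in TKO, 271 in WT) and *Dcn* (18 in TKO, 51 in WT). The receptors *Pdgfrb* (510 counts in TKO, 478 in WT) and *Pdgfra* (30 in TKO, 32 in WT) could not be told from equality, and *Lum* was not measured, with 1 count in TKO and 2 in WT. All 7 macrophage markers were measured and 0 passed the call, beside 5.6% lower and 2.98% higher among all measured genes. At those shares, 0 of 7 does not set them apart. Their summed level was 5667 CPM in TKO and 5344 CPM in WT. Neutrophil markers summed to 3.97 CPM in TKO and 4.27 CPM in WT over 5 genes with an entry, T and NK cell markers to 5.35 CPM in TKO and 7.90 CPM in WT over 2, and B cell markers to 0.554 CPM in TKO and 0.557 CPM in WT over 3. In these lists *S100a9*, a neutrophil calcium-binding protein gene (8 counts in TKO, 21 in WT), and *Lck*, a T cell kinase gene (10 counts in TKO, 32 in WT), passed the call as lower. Dendritic cell markers summed to 199 CPM in TKO and 37.7 CPM in WT over 5. Of this, *Itgax* gave 186 CPM in TKO and 27.0 CPM in WT, and it alone passed the call as higher. *Xcr1* (90 counts in TKO, 84 in WT) and *Ccr7* (26 in TKO, 17 in WT) could not be told from equality, and *Flt3* and *Zbtb46* were not measured. The part of other cells in the chemokine differences was not tested. In such bulk RNA, fewer cells of a type and less RNA per cell cannot be told apart.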

How the data were processed

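One library per genotype was analysed, with 10836855 counts for TKO and 10764519 for WT after rounding. The authors made an estimated count per gene and library, fractional where reads were shared (79.4% were whole in TKO, 79.2% in WT). They also deposited FPKM, its log2 ratio, a p-value and an adjusted value, treated as a score because it can pass 1. Per the submitters' processing notes, HISAT2 2.0.4, Bowtie2 2.2.5, RSEM 1.2.12 and mm10 were used; roles and annotation are not given in the sources used here. In FPKM, 0.01 stands for 0. The 1 entry without a symbol (9.23e-06% of the TKO and 9.29e-06% of the WT count) was left out.

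CPM is counts per 1000000 of the library total. Ratios are TKO over WT CPM with exact 95% Clopper-Pearson conditional intervals; log2 ratios add 0.5 CPM to each value, which understates low genes. A count of 0 was read against 3 counts (0.277 CPM in TKO). Ratios of 2 genes used the conditional odds ratio. FPKM intervals are Poisson, from the counts. Reads without molecular identifiers are not independent molecules. With 1 library each no test across samples was possible. The interval and call were tested on simulated Poisson counts, with changes of at least 2-fold planted in genes of at least 100 CPM. Smaller changes were not planted. Those counts held no variation between libraries beyond counting error, so the test says nothing about differences between replicate cultures. Gene coordinates came from GENCODE M21, the mm10 assembly.

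One gene of the receptor list is not reported here. All 8 members were named, with listed genes 1.5-fold apart and every other measured CC ligand. The members and lists were chosen with earlier results of these data known. Tools were Python 3.11.15, scipy 1.17.1 and, for TMM, edgeR 4.0.16.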

Additional observations from a re-analysis of the deposited data

How the results depend on the processing

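Over 169 recomputed values, 149 stayed within their counting interval, or within 1.5 times for counts and shares. The log2 ratios kept their sign, which counts and shares do not have. Many of the 149 had little room to move, such as log2 ratios recomputed without the added 0.5 CPM or from unrounded counts. TMM scaling moved *Ccl3*, *Ccl4*, *Ccl5*, *Ccl9* and the sum of the 8 out of their counting intervals. With TMM scaling the log2 ratios were −0.53 for *Ccl3*, −0.87 for *Ccl4*, −0.22 for *Ccl5* and −0.10 for *Ccl9*, and −0.32 for the sum of the 8. With median-of-ratios scaling they were −0.54 for *Ccl3*, −0.23 for *Ccl5*, −0.11 for *Ccl9* and −0.34 for the sum. With FPKM the sum was at −0.48, because FPKM gives the long *Ccl9* less weight. The members at least 1.5-fold lower numbered 1 with TMM scaling, 1 with median-of-ratios scaling, 0 at 2-fold and 5 at a WT excess of 25%. Of all genes, 3.24% were 1.5-fold lower at a mean of at least 10 CPM, and 2.05% were lower and 1.53% higher at 100 CPM, a limit chosen after the values were seen. At 10 CPM, 0 other CC ligands were higher and 0 CC receptors lower, since *Ccl28*, *Ccr1* and *Ccr3* are under that limit. With unrounded counts 1 pathway gene, *Ly96*, passed 1.5-fold. No paired analysis was possible because each genotype has 1 library, so no library could be left out either.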
